A study of Mus musculus with 3 samples.

Results

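c-FOS peaks were examined in 4 windows of the mm9 mouse genome set around Cyr61 (also named Ccn1), Ctgf (Ccn2), Ankrd1 and Amotl2, genes that are standard readouts of the transcriptional coactivator YAP and that are also known as genes with AP-1 input. A peak was counted in a window when its midpoint lay inside it. The windows spanned 520 kb and held 2 of the 15011 c-FOS peaks of the series, 0.0133% of the list. The Ankrd1 window held 1 peak and the Amotl2 window held 1 peak. Below, each is named after its window (the Ankrd1 peak, the Amotl2 peak), although neither was assigned to a gene. The Cyr61 and Ctgf windows, those of the best known YAP target genes of the set, held 0 peaks. Most windows of the same size tiled along chromosomes 1 to 19 and X were empty as well. Of these, 71.8% at 120 kb (the Cyr61 size) and 70.7% at 130 kb (the Ctgf size) held 0 peaks. The tiled windows were not chosen to hold a gene.

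The peaks come from chromatin immunoprecipitation and sequencing (ChIP-seq) in ASZ001, an established mouse basal cell carcinoma line. All 3 samples had the genotype RasV12_TGFbR1kd, that is, an activated Ras together with a knockdown by shRNA of the TGF-beta receptor TGFbR1, and all had received Dox and 4OHT, with chromatin fixed on day 6 of induction. c-FOS was precipitated in 2 samples with a rabbit monoclonal antibody (9F6), and 1 input sample had no antibody. The comparison of ChIP with input enters only as far as it shaped the list, and the cell type was not checked against markers, since expression was not analysed here. Every sample shared 1 genotype, 1 treatment and 1 cell line, so binding could not be set against uninduced cells, nor against cells with the receptor or without the activated Ras. The deposited result is 1 peak list that names no replicate and carries no score, so none of the values below has a replicate error or a test, and the depth behind each peak is unknown.

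YAP and its paralogue TAZ are coactivators without a DNA-binding domain of their own. When the Hippo kinases LATS1 and LATS2 are inactive, they enter the nucleus and bind DNA through the TEAD transcription factors. c-FOS pairs with a JUN protein to form AP-1, and TEAD and AP-1 are known to occupy many enhancers together in epithelial tumour cells, with Ras signalling as a classic inducer of Fos. The 4 genes have different roles in this circuit. Cyr61 and Ctgf encode secreted matricellular proteins of the CCN family that bind integrins and act on adhesion, migration and wound repair, and Ctgf is also a classic TGF-beta target. Ankrd1 encodes an ankyrin repeat protein of the nucleus and the muscle sarcomere. Amotl2 encodes an angiomotin, a junctional protein that binds YAP and holds it back, and so is a negative feedback target.

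An mm9 sequence was not used here, so the letters under the 2 peaks are not shown. The promoters of 3 of the 4 genes (not Ctgf) were found in the RefSeq table for GRCm38.p6, and the 250 bases before each start site are printed to show where the TEAD motif lies in these known TEAD targets. Capitals mark matches to GGAATG, the TEAD motif, which reads CATTCC on the other strand. TGANTCA, the AP-1 motif, was searched on both strands too, and could share up to 2 letters with a TEAD match. The Cyr61 promoter is at chr3:145649986-145650235 on the minus strand, that of Ankrd1 at chr19:36119845-36120094 on the minus strand, and that of Amotl2 at chr9:102717554-102717803 on the plus strand. These are GRCm38.p6 positions and cannot be read against the mm9 positions of windows and peaks given further on.
Cyr61: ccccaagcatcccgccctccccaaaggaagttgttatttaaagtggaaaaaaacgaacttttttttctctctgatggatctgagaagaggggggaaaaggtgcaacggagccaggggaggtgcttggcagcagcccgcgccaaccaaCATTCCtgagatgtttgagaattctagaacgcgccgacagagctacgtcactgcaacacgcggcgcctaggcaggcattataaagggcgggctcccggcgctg
Ankrd1: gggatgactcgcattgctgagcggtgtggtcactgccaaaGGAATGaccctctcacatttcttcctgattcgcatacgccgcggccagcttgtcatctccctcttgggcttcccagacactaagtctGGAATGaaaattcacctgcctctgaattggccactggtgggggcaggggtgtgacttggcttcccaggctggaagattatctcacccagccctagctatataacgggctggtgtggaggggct
Amotl2: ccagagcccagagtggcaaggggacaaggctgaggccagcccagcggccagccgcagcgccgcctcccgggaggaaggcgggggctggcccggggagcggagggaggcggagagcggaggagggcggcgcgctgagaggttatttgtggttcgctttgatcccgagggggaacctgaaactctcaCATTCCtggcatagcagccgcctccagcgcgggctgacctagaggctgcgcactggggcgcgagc

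All 3 promoters held a TEAD match, and 0 of the 3 held an AP-1 match in these 250 bases. Among all 32851 promoters of the table, 12.6% held the TEAD motif and 6.75% held the AP-1 motif over the same stretch. The Cyr61 match lay from -103 to -98 relative to the start site, on the antisense strand. Ankrd1 had 2 matches on the sense strand, from -210 to -205 and from -123 to -118, and 2 or more were found in 1.02% of all promoters. The Amotl2 match, on the antisense strand, was the nearest to its start site, from -65 to -60. The Amotl2 stretch was also the richest in G and C, at 70.4%, against 54.8% for Cyr61, 55.6% for Ankrd1 and a median of 52.4% over the table. These genes are used as YAP reporters because TEAD binds them, so the matches are a description of the set and not support for it. A match is not a measured site, and c-FOS binding at these start sites was not analysed here.

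**Figure D1:**
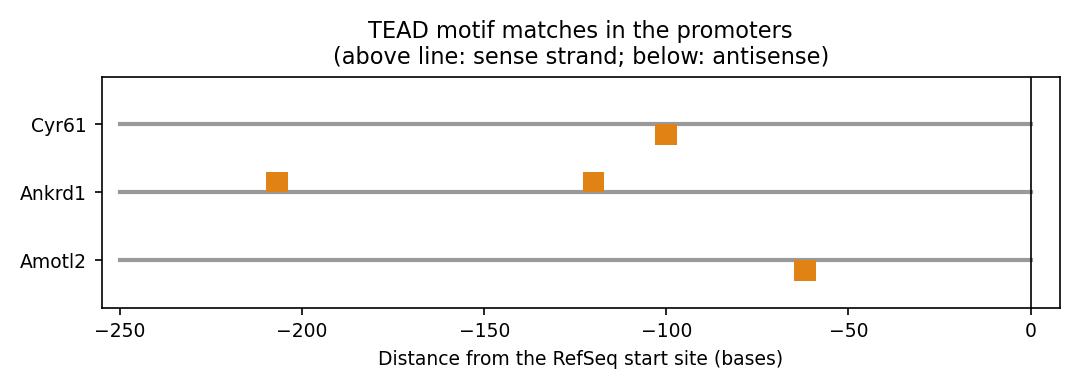
Positions of the TEAD motif GGAATG in the 250 bases before the RefSeq start site (x axis, bases from the start site) of the 3 genes found in the table; boxes above a line are on the sense strand and boxes below it on the antisense strand. Ankrd1 has 2 boxes, Cyr61 and Amotl2 have 1 each, and no AP-1 match was found to draw.

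Other genes of the pathway were counted in the same way. Of 21 further YAP and TAZ target genes, 15 were in the table, and 4 of these 15 (26.7%) had a TEAD match in at least 1 listed promoter: Ajuba, Axl, Crim1 and Ptpn14. Of 13 genes encoding parts of the pathway, 10 were in the table and 6 (60%) had a TEAD match. These 6 were the coactivator genes Yap1 and Wwtr1 (which encodes TAZ), Tead3, Vgll4 (a TEAD cofactor that competes with YAP), and Sav1 and Mob1a, which encode scaffolds of the Hippo kinases. Over all 27025 genes of the table the share was 14.4%. The AP-1 motif was found in 1 of the 15 targets (F3, the tissue factor gene, with 2 matches) and in 0 of the 10 pathway genes, against 7.82% of all genes. Some genes have more than 1 listed promoter, which raises their chance of a match. The number of promoters per gene was not compared between these lists and all genes, so the shares may rest on unequal lengths of sequence. c-FOS peaks at these further genes were not analysed here, for want of an mm9 annotation.

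For the matricellular gene Cyr61, the window on chromosome 3 from 145250001 to 145370000 (120 kb) held 0 peaks. Windows of this size with at least 1 peak made up 25.9% of those tiled along chromosome 3 and 28.2% of those on chromosomes 1 to 19 and X. An empty window was thus the common case among tiled windows. These were not chosen to hold a gene, here and for the other 3 genes, and the share for windows set around genes was not computed. The surroundings were empty as well. The nearest listed peak before the window ended at 144328172, 922 kb away, and was 108 bp wide. The nearest one after it lay from 145627615 to 145627712, 258 kb away, and had the lowest width in the list, 98 bp. The Cyr61 window therefore sat inside a stretch of 1299 kb with no c-FOS peak. Of the 674 gaps between neighbouring peaks on chromosome 3, whose median was 47.2 kb, 28 (4.15%) were at least as long. Because such gaps are long, they covered 42.2% of the chromosome.

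The Ctgf window, for the other CCN gene, gave the same picture. It ran on chromosome 10 from 24250001 to 24380000 (130 kb) and held 0 peaks, where 18.1% of such windows on chromosome 10 and 29.3% of those on chromosomes 1 to 19 and X had at least 1. The last peak before it ended at 23507255, at a distance of 743 kb, and the first peak after it, 149 bp wide, started at 24589663, at a distance of 209.7 kb. The peak-free stretch around Ctgf measured 1082 kb. On chromosome 10, 36 of 373 gaps (9.65%) were at least this long, and they covered 66.3% of its length. Chromosome 10 as a whole was sparse in peaks, with 2.88 per Mb, 0.509 times the density of the list over the genome (5.65 per Mb), whereas chromosome 3 had 4.23 per Mb.

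The Ankrd1 window, on chromosome 19 from 36130001 to 36250000 (120 kb), held 1 peak, from 36203732 to 36203994. With a width of 263 bp it was the wider of the 2 peaks. It was wider than 82.7% of all listed peaks, against a median of 158 bp in the list and 161 bp on chromosome 19. The nearest other peak lay 78.8 kb after it, from 36282799 to 36282986, and the nearest before it lay 241 kb away. Gaps at least as long as the one before it covered 52.5% of chromosome 19, so by length such a setting was common. The distance from a peak to its nearest neighbour had a median of 4.84 kb on chromosome 19, and 60 of the 810 peaks there (7.41%) were at least as isolated. A window of this size with at least 1 peak was found in 48.3% of cases on chromosome 19, the densest of the 4 chromosomes at 13.2 peaks per Mb, and in 28.2% of those on chromosomes 1 to 19 and X. At the mean density of the chromosome, 120 kb would hold 1.58 peaks. Within the 1 Mb centred on the Ankrd1 window there were 7 peaks, of which 5 followed the window and 1 preceded it.

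The Amotl2 window, for the YAP inhibitor, lay on chromosome 9 from 102550001 to 102700000 (150 kb) and held 1 peak, from 102619898 to 102620020. This peak was narrow, at 123 bp, and 71.7% of the list was wider. The width of 123 bp was shared by 120 peaks. On chromosome 9, 23.2% of windows of this size had at least 1 peak, and 31.5% did on chromosomes 1 to 19 and X. Chromosome 9 was the sparsest of the 4, with 2.74 peaks per Mb, which would place 0.411 peaks in 150 kb. The neighbours of the Amotl2 peak were 91.2 kb before it and 290.05 kb after it. The nearest neighbour was farther away than that of the Ankrd1 peak (91.2 against 78.8 kb). Set against its own chromosome, though, this isolation was the less unusual of the pair. On chromosome 9, 111 of the 340 peaks (32.6%) had no nearer neighbour, and the median distance there was 44.7 kb. Gaps at least as long as the 290.05 kb one covered 83.5% of chromosome 9. The preceding peak, from 102528307 to 102528732, was 426 bp wide and lay 21.3 kb outside the window.

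**Figure D2:**
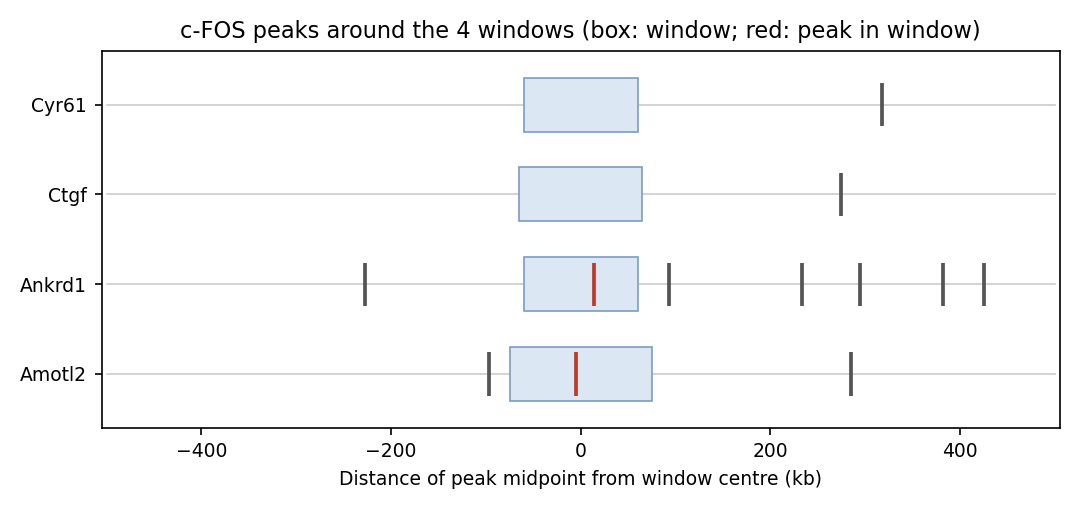
c-FOS peaks (vertical lines) within 500 kb of the centre of each window, with distance from the window centre on the x axis in kb, the windows as boxes and the peaks inside them in red. The Ankrd1 and Amotl2 windows hold 1 peak each, and within this span the Cyr61 and Ctgf rows show 1 peak each, outside the window.

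The 2 peaks differed in width and in surroundings. Neither had another c-FOS peak within 10 kb, which was also the case for 51.3% of all 15011 peaks, for 38.8% of those on chromosome 19 and for 71.8% of those on chromosome 9, so it does not set them apart. Both lay well inside their windows. The Ankrd1 peak was 46.1 kb from the nearer edge and the Amotl2 peak 70.0 kb. They are therefore not borderline cases of the count, while the first peaks just outside were at 21.3 kb (Amotl2) and 32.8 kb (Ankrd1) from an edge. The peak in the Ankrd1 window was 2.14 times as wide as that in the Amotl2 window. Width depends on the peak caller's settings and is a weak stand-in for signal.

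**Figure D3:**
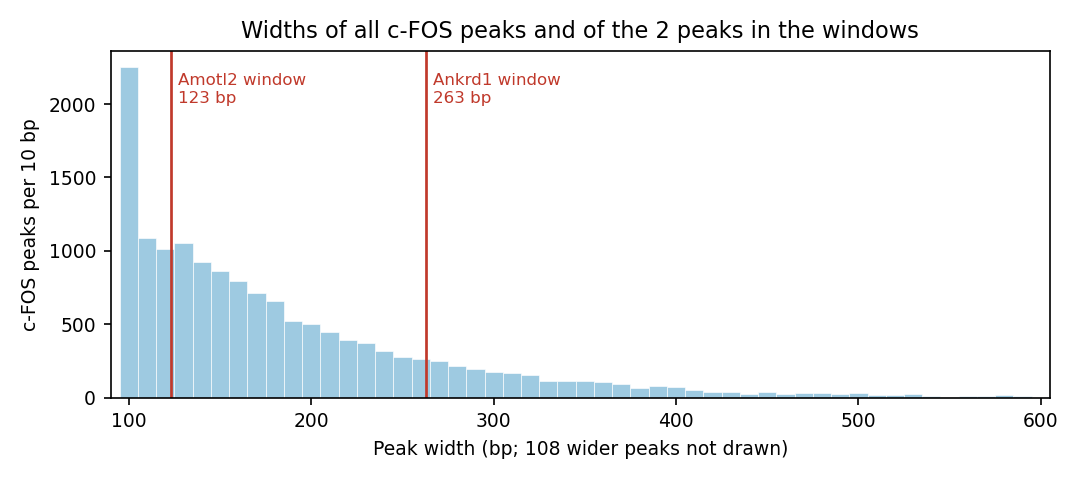
Widths of the listed c-FOS peaks in bins of 10 bp (x axis, bp; y axis, peaks per bin), with red lines at the 2 peaks found in the windows. The Amotl2 peak, at 123 bp, is among the narrow peaks and the Ankrd1 peak, at 263 bp, is on the upper side of the distribution; 108 wider peaks are not drawn.

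As a set, the 4 windows held 3.85 peaks per Mb, against 5.65 per Mb for the whole list. Their chromosomes differ in density, and at the mean density of each chromosome the windows together would hold 2.88 peaks, against the 2 found. Of these 2.88, 1.58 came from the Ankrd1 window on chromosome 19. Such a mean is not a typical count, because most tiled windows were empty and a few held many peaks. Windows with exactly 1 peak, as for Ankrd1 and Amotl2, made up 13.2% of those of 120 kb and 13.5% of those of 150 kb on chromosomes 1 to 19 and X. Windows with 2 or more, of which the set had 0, made up 15.0% and 18.0%. With 2 peaks in the YAP target windows, neither a likeness to the list as a whole nor a difference from it in either direction can be read.

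**Figure D4:**
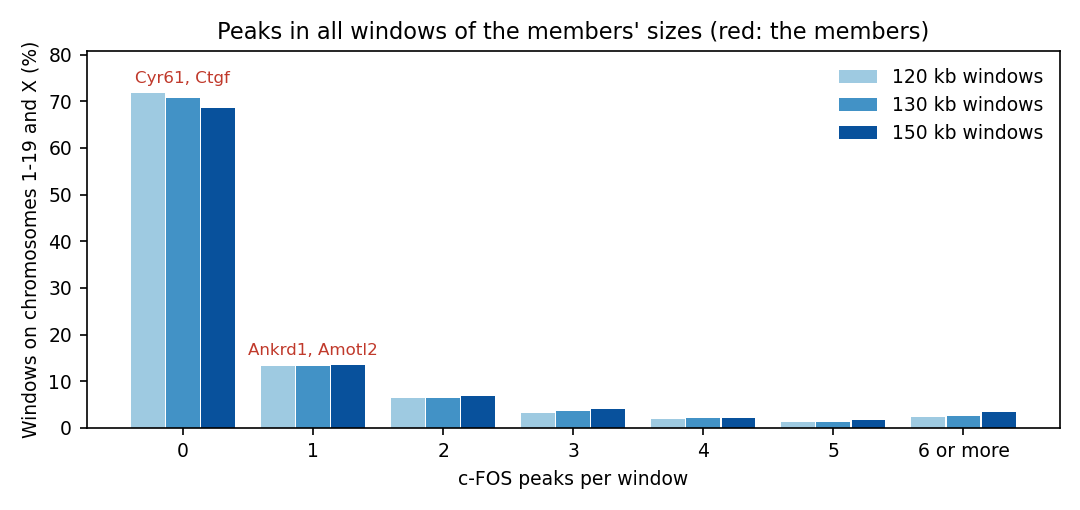
Share of all tiled windows on chromosomes 1 to 19 and X (y axis, %) by the number of c-FOS peaks they hold (x axis), for the window sizes of the 4 genes, whose names are in red above the number of peaks found. Empty windows are the most frequent class at each size, at 71.8% for 120 kb, 70.7% for 130 kb and 68.5% for 150 kb.

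The windows reach beyond the genes they are named for. In GRCm38.p6, the gene Cyr61 measures 3015 bases, Ctgf 3242, Ankrd1 7880 and Amotl2 16328, each far shorter than its window. By gene order in that assembly, the protein-coding neighbours are Znhit6 and Ddah1 for Cyr61, Moxd1 and Enpp1 for Ctgf, Rpp30 and Pcgf5 for Ankrd1, and Anapc13 and Ryk for Amotl2. Where in each window the gene and its neighbours lie on mm9 was not analysed here, so neither the Ankrd1 nor the Amotl2 peak was placed in a promoter, exon, intron or intergenic sequence, and neither was assigned to a gene. Likewise, an empty window says that no peak passed the authors' threshold there, not that c-FOS was absent.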

How the data were processed

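The authors deposited 1 list of c-FOS peaks as chromosome, start and end on mm9, with no score or other value per peak. Reads were aligned with Bowtie2 and peaks called with MACS2, per the submitters' processing notes; for versions, the threshold, the part played by the input and any pooling of the 2 ChIP samples, nothing is given in the sources used here. Groups came from the sample titles. Positions are printed 1-based. All peaks lay within the mm9 chromosome lengths held in GenomeInfoDb 1.38.1 (R 4.3.3).

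Peaks were assigned to the 4 windows by midpoint. For the background, each chromosome was tiled from its first base, assembly gaps included, with whole windows of the same size that did not overlap. Gaps between neighbouring peaks, widths and motif matches were computed with Python 3.11.15, numpy 2.4.6 and pandas 2.3.3, after the counting steps had been checked on planted data. Motifs were searched in the 250 bases before each start site, the 50 bases after it being left out. Figures were drawn with matplotlib 3.10.9. No test was run, since the list has no replicates. The window bounds were taken as given with the gene set and were not checked against an mm9 annotation. The 4 genes were all named whatever their count. Genes and lists were chosen with earlier results of these data known. Planned protein comparisons and counts of peaks at further pathway genes were not run.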

Additional observations from a re-analysis of the deposited data

How the results depend on the processing

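The counts in the 4 windows and their total were recomputed under 6 alternatives, and 25 of the 30 values stayed as reported. Most of these outcomes were fixed by the distances and widths given above, and the totals repeat the window counts. The peaks nearest to the Cyr61 and Ctgf windows, for example, lay 258 and 209.7 kb outside, beyond any widening tried. The unchanged values are therefore not independent support for the counts. Counting any overlap of at least 1 bp, narrowing each window by 20 kb on both sides, merging peaks within 1000 bp and dropping peaks of the lowest width changed no count. Widening each window by 50 kb on both sides raised Ankrd1 to 2 peaks, Amotl2 to 2 and the total to 4, as neighbouring peaks came in, and left Cyr61 and Ctgf at 0. Keeping only peaks wider than the median of 158 bp took Amotl2 to 0 and the total to 1, because its peak is narrower. A stricter peak threshold could not be tried without scores. No paired analysis was possible because the deposited list names no replicate, and leaving out a replicate was not possible for the same reason. Depth is unknown, so the sensitivity behind the empty Cyr61 and Ctgf windows cannot be stated.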
